A study of Rattus norvegicus with 16 samples.

Results

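The mineralocorticoid receptor and the sodium transport genes that it controls were examined in bulk RNA-Seq of whole rat kidneys, as 6 Ensembl gene IDs of 32623 in the deposited tables. The 6 IDs were chosen as the rows of the mineralocorticoid receptor, the glucocorticoid receptor, the kinase SGK1, the α and γ subunits of the epithelial sodium channel (ENaC) and the enzyme HSD11B2. The deposited tables hold IDs without gene names, so a symbol was given to an ID only where its TPM (transcript levels scaled for gene length and to a common total per library) were equal, library by library, to those in a named supplementary table of the study and no other ID matched. By this rule ENSRNOG00000019368 was Scnn1a (equal in 14 libraries) and ENSRNOG00000017084 was Hsd11b2 (equal in 7 libraries). The other 4, ENSRNOG00000034007, ENSRNOG00000014096, ENSRNOG00000011815 and ENSRNOG00000017842, had no such match and are given by ID alone. All 6 passed the filter on low counts, a count above 4 in at least 3 libraries.

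Aldosterone binds the mineralocorticoid receptor in the principal cells of the collecting duct, and the bound receptor moves to the nucleus and raises transcription of genes that take up sodium from the urine. Sodium enters these cells through ENaC, built of α, β and γ subunits (Scnn1a, Scnn1b and Scnn1g). HSD11B2 inactivates glucocorticoids in the same cells and so leaves the receptor open to aldosterone, and the kinase SGK1 is an early target that keeps ENaC at the cell surface.

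There were 16 libraries of Sprague-Dawley rats, 4 from each of 4 groups. Rats of the DOCA group received deoxycorticosterone acetate, a mineralocorticoid, with salt in the drinking water, and rats of the finerenone and spironolactone groups received these mineralocorticoid receptor antagonists in addition. Per the study's methods, a kidney had been removed from the rats of these 3 groups, while control rats had a sham operation, oil injections and tap water, so each comparison with control covers nephrectomy, DOCA and salt together. Both drugs were given by gavage at different doses per body weight, and the DOCA group was given vehicle. The labels give an age of 6 weeks, whereas the methods describe 6 weeks of DOCA treatment. The study describes its bulk libraries as 6-week data. In whole kidney RNA, fewer principal cells and less RNA per cell cannot be told apart.

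Total counts ranged from 7063158 to 8056929 per library, with 10932887 in spironolactone replicate 4. DOCA replicate 4 and spironolactone replicate 4 were described with the rest but left out of the tests, because the study dropped a library from each of these groups and only these 2 have no match among its supporting TPM. Levels are CPM, counts scaled to a library total of 1e+06 that was corrected by the trimmed mean of M values (TMM). The 50 most abundant genes held 27.8% to 32.6% of counts in control and finerenone libraries and 22.4% to 25.8% in DOCA and spironolactone libraries. Scales without TMM move with this share. Between DOCA and control, the 14628 genes tested had a median change of 0.02 (log2) after TMM and of 0.42 on log2(TPM + 1). A gene was called when edgeR's quasi-likelihood test gave a Benjamini-Hochberg adjusted p under 0.05 and its log2 fold change was 0.5 or more in size. The sample codes share a first number within groups, and what this number stands for is not stated, so the p-values measure the spread between these libraries.

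Scnn1a was the gene that separated the drug groups. Its level was 75.5, 85.7, 97.2 and 101 CPM in control replicates 1 to 4, and 107, 100.2, 131 and 95.8 CPM in DOCA replicates 1 to 4. In finerenone replicates 1 to 4 it was 55.2, 58.2, 61.4 and 54.4 CPM. In spironolactone replicates 1 to 4 it was 100.2, 78.6, 82.7 and 90.5 CPM. In CPM all finerenone libraries lay below every library of the other 3 groups, while control and spironolactone libraries covered nearly the same range. In TPM, finerenone replicate 3 (20.2) lay above control replicate 1 (19.4). Spironolactone libraries (31.6 to 38.3 TPM) lay above all control libraries (19.4 to 28.3 TPM). The mean was 57.3 ± 3.21 CPM (SD, n = 4) with finerenone and 113 ± 16.2 CPM (SD, n = 3) in DOCA. Scnn1a fell by 0.98 ± 0.12 (SE) on the log2 scale between DOCA and finerenone, to 0.507 of the DOCA level, with an edgeR adjusted p of 2.35e-05. Against control (89.7 ± 11.5 CPM, SD, n = 4) it fell by 0.65 ± 0.11 (SE) with finerenone, with an edgeR adjusted p of 0.0024. When libraries sharing the first code number were summed, this call was lost (-0.64, edgeR adjusted p of 0.0506). Between the drugs it was lower with finerenone by a log2 fold change of -0.60 ± 0.12 (SE), and this direct test gave an edgeR adjusted p of 0.00184. Without spironolactone replicate 1 the difference was -0.49, under the size needed for a call.

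**Figure D1:**
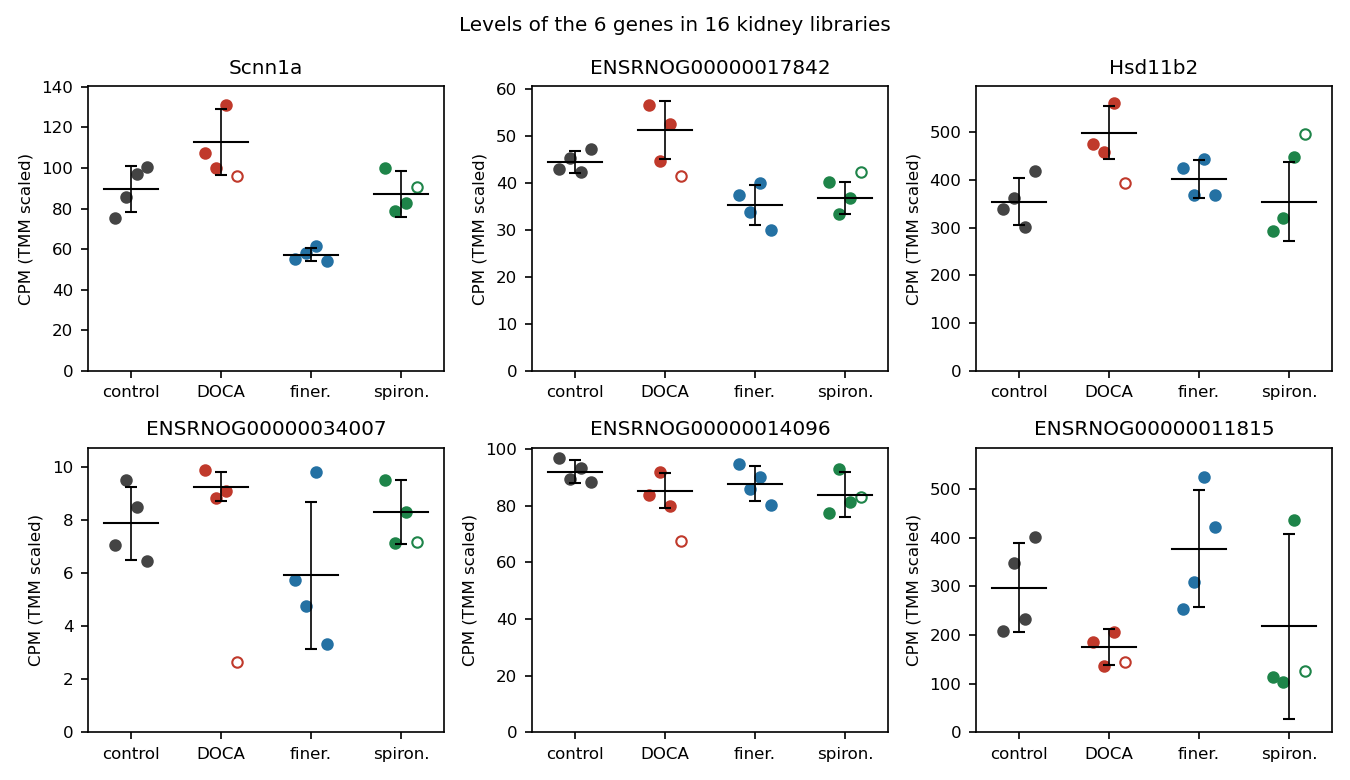
Levels of the 6 genes in CPM (vertical axes, from 0) by group (horizontal axes). Points are libraries in order of replicate number, open points are the 2 libraries left out of the tests, and bars give the mean and SD of the others. The finerenone points of Scnn1a, 54.4 to 61.4 CPM, sit below all other libraries, whereas the points of ENSRNOG00000014096 cover a similar range in the 4 groups.

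Spironolactone libraries held 87.2 ± 11.5 CPM of Scnn1a (SD, n = 3). This differed from DOCA by -0.37 ± 0.12 (SE) on the log2 scale. Its unadjusted p was 0.00718, but the edgeR adjusted p over all genes was 1.00. The interval of this difference, 2 SE to each side, ran from -0.62 to -0.13. From control, spironolactone libraries differed by -0.04 ± 0.12 (SE), with an interval of -0.27 to 0.19 and an edgeR adjusted p of 0.816. On log2(TPM + 1) this difference was 0.47 ± 0.15 (SE), with a limma adjusted p of 0.0169, under the size needed for a call. The median of all genes was 0.41 in that comparison. Between DOCA and control Scnn1a was 0.33 ± 0.12 (SE, log2) higher at an edgeR adjusted p of 0.0305, under the size needed for a call.

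ENSRNOG00000017842 fell with finerenone, and its difference between spironolactone and DOCA did not pass the test. Its level was 42.9, 45.3, 42.4 and 47.4 CPM in control replicates 1 to 4, and 56.6, 44.7, 52.7 and 41.5 CPM in DOCA replicates 1 to 4. It was 37.5, 34.0, 40.0 and 30.0 CPM in finerenone replicates 1 to 4, and 40.2, 33.5, 36.9 and 42.3 CPM in spironolactone replicates 1 to 4. In CPM, all finerenone libraries, and all spironolactone libraries except for replicate 4, lay below every DOCA library. All libraries of both drug groups lay below every control library in CPM, with spironolactone replicate 4 at 42.35 and control replicate 3 at 42.42. Among the libraries tested, such a gap below control was found for 5.59% of all genes with finerenone and 19.3% with spironolactone. In TPM, all spironolactone libraries (15.04 to 18.2) instead lay above every control library (up to 14.5). Finerenone replicate 3 (14.7 TPM) did so too. From DOCA, ENSRNOG00000017842 fell by 0.54 ± 0.11 (SE, log2) with finerenone, to 0.689 of the DOCA level, with an edgeR adjusted p of 0.00277. The log2 fold change with spironolactone was -0.48 ± 0.12 (SE), with an unadjusted p of 0.000935 and an edgeR adjusted p of 0.804, and with all 16 libraries it was -0.35 and the libraries overlapped. Directly between the drugs the difference was -0.06 ± 0.12 (SE) after TMM, with an interval of -0.29 to 0.17, and -0.43 ± 0.14 (SE) on log2(TPM + 1), with a limma adjusted p of 0.029 but under the size needed for a call. The finerenone call was lost with all 16 libraries (-0.47), without DOCA replicate 1 (-0.46) and without finerenone replicate 4 (-0.47), where the size was under 0.5.

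Hsd11b2 was the most abundant of the 6 genes per length. Its control libraries held 175 to 232 TPM, followed by ENSRNOG00000011815 (75.5 to 156 TPM), Scnn1a (19.4 to 28.3 TPM), ENSRNOG00000014096 (15.4 to 17.6 TPM), ENSRNOG00000017842 (up to 14.5 TPM) and ENSRNOG00000034007 (up to 3.33 TPM). No neighbours in this order overlapped among control libraries. In CPM its level was 339, 361, 301 and 419 in control replicates 1 to 4, and 476, 459, 562 and 394 in DOCA replicates 1 to 4. It was 425, 369, 445 and 370 CPM in finerenone replicates 1 to 4, and 293, 321, 448 and 496 CPM in spironolactone replicates 1 to 4. The 3 DOCA libraries tested lay above all control libraries, and spironolactone libraries were spread over most of the range of the other groups. Between DOCA and control its log2 fold change was 0.49 ± 0.14 (SE) at an edgeR adjusted p of 0.00978, just under the size needed for a call. From DOCA it was -0.31 ± 0.14 (SE) with finerenone (edgeR adjusted p of 0.12) and -0.50 ± 0.15 (SE) with spironolactone (unadjusted p of 0.0039, edgeR adjusted p of 1.00). With all 16 libraries these were -0.23 ± 0.16 (SE) and -0.28 ± 0.16 (SE).

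Of the remaining IDs, none was called in any comparison. ENSRNOG00000034007, the least abundant, held 7.08, 9.50, 8.51 and 6.47 CPM in control replicates 1 to 4, and 9.88, 8.83, 9.10 and 2.67 CPM in DOCA replicates 1 to 4. It held 5.76, 4.77, 9.81 and 3.33 CPM in finerenone replicates 1 to 4, and 9.52, 7.13, 8.31 and 7.17 CPM in spironolactone replicates 1 to 4. Of the finerenone libraries, 3 lay below all others apart from DOCA replicate 4, and replicate 3 lay near the top. The log2 fold change between finerenone and DOCA was -0.64 ± 0.27 (SE) at an edgeR adjusted p of 0.104. This change depended on single libraries in both directions. Without finerenone replicate 3 it grew to -0.98 (edgeR adjusted p of 0.0073). In the fit of all 16 libraries, which keeps DOCA replicate 4, it shrank to -0.35 (edgeR adjusted p of 0.487).

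ENSRNOG00000014096 held a similar level in the 4 groups. Its libraries ranged from 88.3 to 97.0 CPM in control, 67.5 to 92.0 CPM in DOCA, 80.2 to 94.8 CPM with finerenone and 77.5 to 92.8 CPM with spironolactone. The largest log2 fold change in size, -0.13 ± 0.09 (SE) between spironolactone and control, had an interval of -0.31 to 0.04 and an edgeR adjusted p of 0.262. With finerenone it differed from DOCA by 0.04 ± 0.09 (SE), with an interval of -0.14 to 0.22.

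ENSRNOG00000011815 had its lower levels in DOCA and its higher levels with finerenone, the reverse of Scnn1a, but over a wide spread. Its level was 209, 348, 233 and 400.4 CPM in control replicates 1 to 4, and 185, 136, 207 and 145 CPM in DOCA replicates 1 to 4. It was 254, 310, 526 and 422 CPM in finerenone replicates 1 to 4, and 113, 103, 437 and 126 CPM in spironolactone replicates 1 to 4. All DOCA libraries lay below all control and all finerenone libraries, whereas the spironolactone group held 3 libraries below the lowest DOCA library and 1 above all control libraries. The log2 fold change was -0.76 ± 0.51 (SE) between DOCA and control (edgeR adjusted p of 0.279) and 1.10 ± 0.51 (SE) between finerenone and DOCA (edgeR adjusted p of 0.159). Neither was called. In a fit of only the finerenone and DOCA libraries, the change of 1.10 was called with an edgeR adjusted p of 0.0357. With all 16 libraries it was 1.17 and not called (edgeR adjusted p of 0.0701). Leaving out single libraries gave this rise edgeR adjusted p of 0.0254 to 0.338. It was called only without spironolactone replicate 3 (0.0254), a library of neither group compared. Without the same library, the log2 fold change between spironolactone and control became -1.46 with an edgeR adjusted p of 0.0095.

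Whether both receptor blockers lowered the 6 genes was then counted. In the comparison of DOCA with control, 0 of 6 were called, beside 26.7% of all genes in either direction and 15.4% higher. By adjusted p alone 2 of 6 passed, both higher, beside 36.9% of all genes, and the same number had an unadjusted p under 0.05, beside 45.5% of all genes. DESeq2 and limma-voom also called 0. Between finerenone and DOCA 2 of 6 were called, Scnn1a and ENSRNOG00000017842, both lower, beside 7.70% of all genes called lower and 13.7% called in either direction. In CPM the finerenone and DOCA libraries tested did not overlap for 3 of 6 that were lower (Hsd11b2 in addition), beside 16.5% of all genes. With all 16 libraries those of Hsd11b2 overlapped, at 445 CPM in finerenone replicate 3 and 394 CPM in DOCA replicate 4. In the fit of 14 libraries the median of the 6 was -0.43 (log2), beside -0.03 for all genes. Between spironolactone and DOCA 0 of 6 were called, and of all genes 0.00% were called by edgeR, 11 genes by DESeq2 and 0 by limma-voom. At an unadjusted p under 0.05, 3 of 6 were lower with spironolactone, namely Scnn1a, ENSRNOG00000017842 and Hsd11b2, beside 1.89% of all genes lower and 3.95% in either direction. In CPM the libraries tested did not overlap for the same 3, beside 5.15% of all genes lower. For Scnn1a this rested on 100.2166 CPM in spironolactone replicate 1 against 100.2168 CPM in DOCA replicate 2. In TPM the libraries tested overlapped for Scnn1a (38.3 in spironolactone replicate 1, 36.9 in DOCA replicate 2). They also overlapped for Hsd11b2 (347 in spironolactone replicate 3, 341 in DOCA replicate 2). With all 16 libraries 2 of 6 had an unadjusted p under 0.05, and in CPM spironolactone and DOCA libraries overlapped for all 6. The median of the 6 was -0.27 (log2), beside 0.01 for all genes. Between finerenone and control 1 of 6 was called (Scnn1a, lower), beside 0.855% of all genes lower and 4.18% in either direction. Between spironolactone and control 0 of 6 were called, beside 24.6% of all genes, with DESeq2 and limma-voom also at 0 and 1 of 6 at an unadjusted p under 0.05, beside 43.5% of all genes. Between the drugs 1 of 6 was called (Scnn1a, lower with finerenone), beside 6.84% of all genes lower and 11.4% in either direction. Both drugs were compared with the same DOCA libraries, so their values are not independent of each other.

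**Figure D2:**
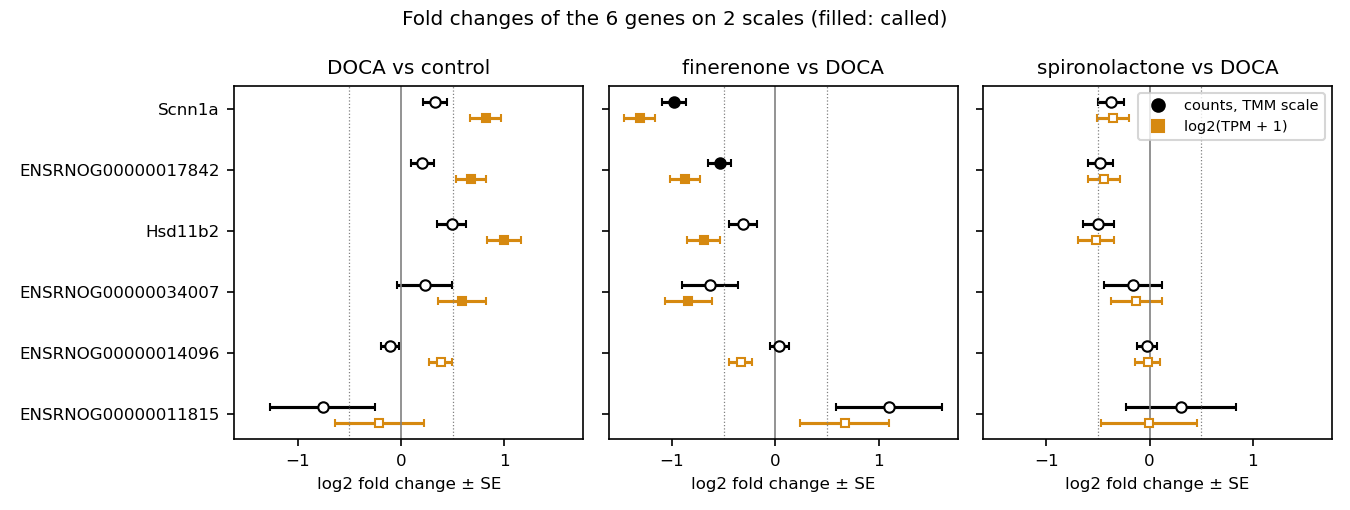
Log2 fold changes with SE (horizontal axes) of the 6 genes (rows) in 3 comparisons (panels). Circles are counts on the TMM scale, squares are log2(TPM + 1), filled symbols are called, and dotted lines mark 0.5 in size. In DOCA vs control the squares lie to the right of the circles for every gene, whereas in spironolactone vs DOCA the scales nearly coincide except for ENSRNOG00000011815.

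The rise with DOCA depended on the scale. On log2(TPM + 1), 4 of 6 were called higher in DOCA than in control, beside 39.4% of all genes. The log2 differences on that scale were 0.82 ± 0.15 (SE) for Scnn1a, 0.68 ± 0.14 (SE) for ENSRNOG00000017842, 1.00 ± 0.16 (SE) for Hsd11b2 and 0.59 ± 0.23 (SE) for ENSRNOG00000034007. The median of all genes shifted by 0.42 in the same comparison, so relative to that median these rises were about as large as after TMM. On the same TPM scale Scnn1a fell by 1.31 ± 0.15 (SE) between DOCA and finerenone, where the median of all genes was -0.34. The decline below control was not called on log2(TPM + 1), where it was -0.49 with a limma adjusted p of 0.055. ENSRNOG00000014096 turned its sign with the scale, from -0.11 after TMM to 0.39 on log2(TPM + 1) between DOCA and control, and was called on neither. Between spironolactone and control, where the median of all genes was 0.41 on log2(TPM + 1), other members turned too. Hsd11b2 moved from -0.004 after TMM to 0.48, Scnn1a from -0.04 to 0.47 and ENSRNOG00000017842 from -0.27 to 0.23, with none called.

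Because such shifts cancel when 2 genes of the same library are divided, the TPM of Scnn1a were set against those of other genes in each library. These ratios were chosen after the values had been seen. The first partner was Scnn1b, the β subunit of the same channel. The ratio of Scnn1a to Scnn1b was 1.38 ± 0.189 (SD, n = 4) in control, 1.43 ± 0.187 in DOCA and 1.38 ± 0.161 with spironolactone, but 0.817 ± 0.0507 with finerenone. The 4 finerenone libraries held 0.742 to 0.849 and the other 12 held 1.22 to 1.69, so that Scnn1a went from more to fewer transcripts than Scnn1b. Since the ratios were chosen with the levels of Scnn1a in view, they are given as a description with no test. The ratio of Scnn1a to Hsd11b2 was 0.0709 ± 0.00516 (SD, n = 4) with finerenone and 0.115 ± 0.00577 in DOCA, and finerenone libraries again lay below every other library. The ratio of Scnn1a to ENSRNOG00000017842 was 1.47 ± 0.142 (SD, n = 4) with finerenone, below all DOCA and spironolactone libraries, but it overlapped control.

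**Figure D3:**
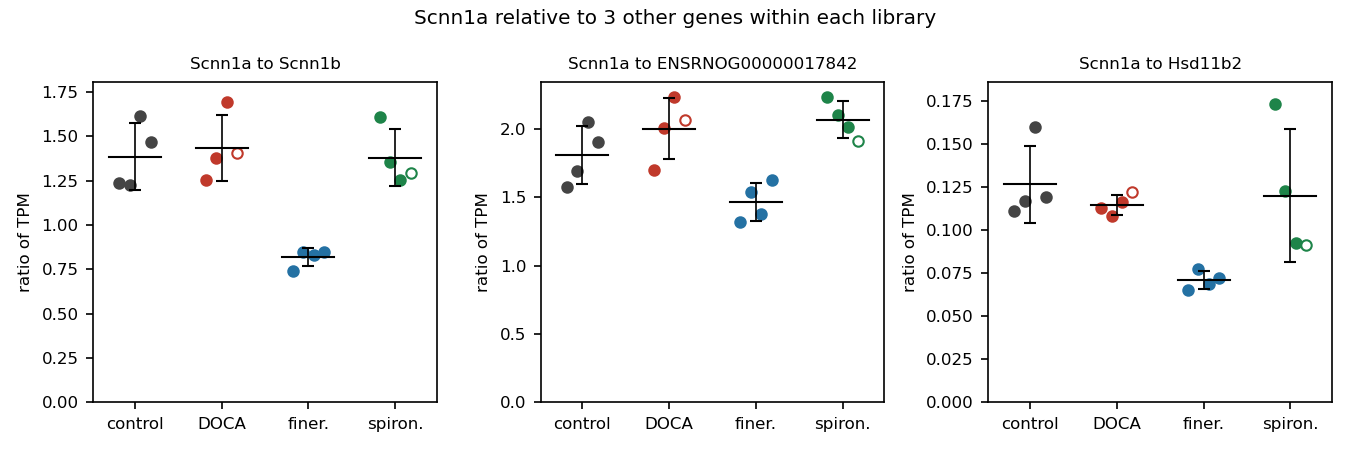
Ratios of the TPM of Scnn1a to those of Scnn1b, ENSRNOG00000017842 and Hsd11b2 (vertical axes, from 0) in each library by group, with mean and SD of 4 libraries. Open points are DOCA replicate 4 and spironolactone replicate 4. In the left panel the 4 finerenone libraries lie between 0.742 and 0.849 and no other library is below 1.22.

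The neighbours of these genes in the pathway were taken from 3 lists, and a symbol could be given to 8 of 22 genes of sodium and potassium transport, 5 of 23 regulators of the sodium channel and 3 of 17 corticosteroid response genes and receptor chaperones. The symbols come from the first part of a study table of genes changed in DOCA and from tables of plotted genes, so the genes that could be named were largely chosen on the DOCA comparison. None of the genes named was called lower in DOCA than in control. Their counts and directions in that comparison, and in those with DOCA libraries on one side, are not independent evidence.

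Among the transport genes, Scnn1b differed less between groups than the junction and calcium transport genes. Scnn1b held 48.7 to 56.5 CPM in control, 55.1 to 69.5 in DOCA, 52.0 to 60.1 with finerenone and 47.0 to 56.6 with spironolactone. Its log2 fold change from DOCA was -0.16 ± 0.09 (SE) with finerenone and -0.34 ± 0.10 (SE) with spironolactone, and neither was called. The direct test between finerenone and spironolactone gave 0.18 ± 0.10 (SE) with an edgeR adjusted p of 0.217. Cldn8, a claudin that seals the junctions of the collecting duct against sodium, rose by 0.91 ± 0.12 (SE) in DOCA and fell by 0.66 ± 0.12 (SE) with finerenone. Its level was 54.7 ± 5.39 CPM (SD, n = 4) in control, 103 ± 11.2 (n = 3) in DOCA, 65.1 ± 7.99 (n = 4) with finerenone and 97.3 ± 15.6 (n = 3) with spironolactone. Cldn4, another claudin of the distal nephron, rose by 2.63 ± 0.32 (SE) in DOCA and fell by 1.80 ± 0.31 (SE) with finerenone, a call that was lost when libraries sharing the first code number were summed (-1.71, edgeR adjusted p of 0.0619). Trpv5, the apical calcium channel of the distal convoluted tubule, rose by 2.24 ± 0.27 (SE) and fell by 1.13 ± 0.25 (SE). In all, 4 of 8 transport genes were called higher in DOCA, with Fxyd5 as the fourth, beside 15.4% of all genes. With finerenone 3 of 8 fell, beside 7.70% of all genes, and with spironolactone 0 of 8 were called, beside 0.00%. Their median log2 fold change was 0.98, -0.74 and -0.18 in these comparisons, beside 0.02, -0.03 and 0.01 for all genes. On log2(TPM + 1) the counts were 8, 7 and 0 of 8, beside 39.4% higher, 27.9% lower and 0.00684% of all genes called.

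St14, which encodes the membrane protease matriptase, had the channel regulators' largest fall with finerenone. Its level was 45.7 ± 3.06 CPM (SD, n = 4) in control, 77.6 ± 4.74 (n = 3) in DOCA, 35.8 ± 4.45 (n = 4) with finerenone and 58.6 ± 2.39 (n = 3) with spironolactone. In CPM, finerenone libraries held 31.4 to 41.2 and lay below all control libraries (41.9 to 49.2), as those of Scnn1a did. In TPM the finerenone and control libraries overlapped for both genes, with St14 at 13.2 in finerenone replicate 1 and 12.8 in control replicate 2. Between finerenone and control, the log2 fold change of St14 was -0.35 ± 0.10 (SE). Its edgeR adjusted p was 0.0368, but it was under the size needed for a call, unlike Scnn1a. St14 rose by 0.76 ± 0.10 (SE, log2) in DOCA and fell by 1.12 ± 0.10 (SE) between DOCA and finerenone. With spironolactone the log2 fold change from DOCA was -0.41 ± 0.11 (SE), with an unadjusted p of 0.00119 and an edgeR adjusted p of 0.915. Between the drugs St14 was lower with finerenone by -0.71 ± 0.10 (SE), with an edgeR adjusted p of 0.000156. Cnksr3, a scaffold that assembles the ENaC regulatory complex, rose by 0.61 ± 0.14 (SE) in DOCA and was -0.19 ± 0.14 (SE) with finerenone from DOCA. The PI3K regulatory subunits Pik3r1 and Pik3r3 rose by 1.25 ± 0.18 (SE) and 1.06 ± 0.27 (SE) in DOCA, and Pik3r3 fell by 0.79 ± 0.26 (SE) with finerenone. The fall of Pik3r3 lost its call without any single DOCA library and without finerenone replicate 2 or 4, and with libraries of the same first code number summed. It was also lost with all 16 libraries (-0.55, edgeR adjusted p of 0.213) and with a replicate block (edgeR adjusted p of 0.0556). Nedd4, a ubiquitin ligase related to the one that removes ENaC from the membrane, was 0.48 ± 0.08 (SE) higher in DOCA, under the size needed for a call. Of the 5 regulators 4 were called higher in DOCA (15.4% of all genes), 2 fell with finerenone (7.70% of all genes) and 0 were called with spironolactone (0.00% of all genes).

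Of the 3 corticosteroid response genes with a symbol, 2 rose in DOCA, Tsc22d1 by 1.05 ± 0.16 (SE, log2) and Angptl4 by 2.87 ± 0.26 (SE). Angptl4, a lipoprotein lipase inhibitor that glucocorticoids induce, held 1.85 ± 0.145 CPM (SD, n = 4) in control, 13.7 ± 3.41 (n = 3) in DOCA, 7.98 ± 1.91 (n = 4) with finerenone and 22.7 ± 5.45 (n = 3) with spironolactone. It fell by 0.78 ± 0.22 (SE, log2) between DOCA and finerenone, a call that was lost without DOCA replicate 2 or finerenone replicate 3 and with summed libraries. Ddit4, a stress gene that glucocorticoids induce, was 0.67 ± 0.27 (SE) higher in DOCA and was not called.

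**Figure D4:**
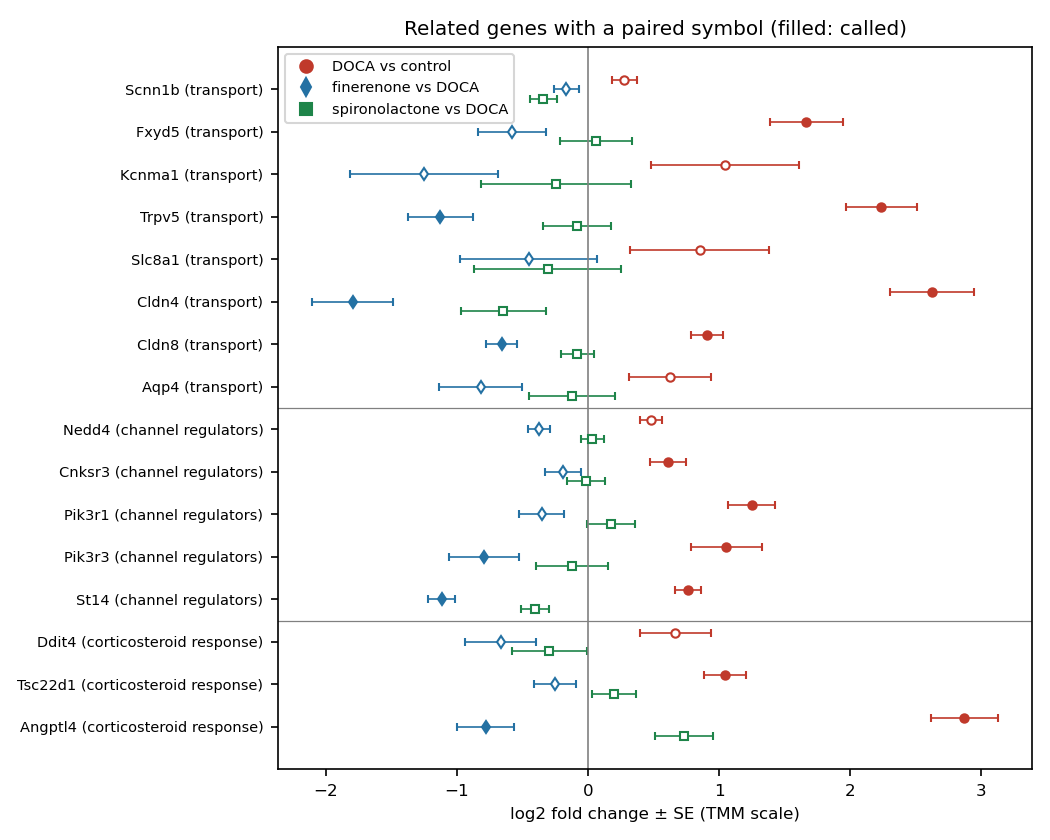
Log2 fold changes with SE (horizontal axis, TMM scale) of the transport, channel regulator and corticosteroid response genes with a symbol (rows), in DOCA vs control (circles), finerenone vs DOCA (diamonds) and spironolactone vs DOCA (squares). Filled symbols are called. Circles lie to the right of 0 and diamonds to the left for all 16 genes, and no square is filled. These genes could be named largely through the DOCA comparison, so the shared side of circles and of diamonds is not independent evidence.

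Among the markers that could be named, again largely through the DOCA comparison, those of several cell types moved with the groups. None of the named markers was called lower in DOCA than in control. No symbol could be given to any listed marker of proximal tubule, loop of Henle, podocytes, intercalated cells or endothelium. The study reports Aqp2 and Fxyd4, principal cell markers without a symbol here, as lower in DOCA-treated rats. It also gives Hsd11b2 as lower with DOCA and back at baseline with finerenone, and its scheme of target genes shows the ENaC genes as decreased. In the whole kidney values here, Hsd11b2 and Scnn1a differed from control by 0.49 and 0.33 (log2) in DOCA, both higher and neither called. The study drew on single-nucleus and bulk data, and the reason for this difference was not tested. The principal cell markers Aqp4, Tfcp2l1 and Cldn8, the 3 of 8 with a symbol, summed to 38.9 to 56.9 TPM in control, 92.7 to 120 in DOCA, 42.5 to 71.7 with finerenone and 92.7 to 119 with spironolactone. After TMM, only Cldn8 of these 3 was called in DOCA or with spironolactone against control, and the log2 fold changes of Aqp4 and Tfcp2l1 between DOCA and control were 0.62 ± 0.31 (SE) and 0.51 ± 0.22 (SE), neither called. Tfcp2l1 fell by 0.75 ± 0.22 (SE, log2) between DOCA and finerenone, with an edgeR adjusted p of 0.0252. This p rose above 0.05 when any single DOCA library or finerenone replicate 2 was left out or libraries of the same first code number were summed. It was 0.0988 with all 16 libraries (-0.56) and 0.0743 with only the 2 groups compared. Markers of injured proximal tubule (7 of 7 with a symbol, among them Spp1, Havcr1 and Lcn2) summed to 381 to 622 TPM in control, 8369 to 21120 in DOCA, 1588 to 3284 with finerenone and 6665 to 15586 with spironolactone. Outside control, Spp1 alone made up most of these sums. It held 127 to 345 TPM in control, 7520 to 19028 in DOCA, 1254 to 2860 with finerenone and 5801 to 14217 with spironolactone. Havcr1 held 0.29 to 3.03, 75.2 to 169, 11.2 to 25.5 and 92.6 to 259 TPM in the same order. Lcn2 held 2.03 to 8.64, 96.55 to 835, 24.1 to 65.9 and 110 to 311 TPM. The 3 fibroblast markers summed to 42.1 to 70.7, 260 to 507, 103 to 162 and 221 to 355 TPM in the same order, and the 6 macrophage and leukocyte markers to 242 to 403, 827 to 1399, 513 to 579 and 925 to 996 TPM. The part of these cell types in the changes of the 6 genes was not tested.

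The genes most like each member were taken by Pearson's r of log2 CPM over the 16 libraries, among the genes with a symbol. Libraries of a group share their treatment, so r is given with its value after group means were removed. Scnn1a was most like the mitochondrial creatine kinase Ckmt1 (r = 0.88, 0.31 within groups), the prostaglandin receptor Ptgfr (r = 0.86, 0.38 within groups) and the malic enzyme Me3 (r = 0.84, 0.53 within groups). Hsd11b2 was most like Scnn1b (r = 0.80, 0.73 within groups), and 0 of all 14627 other IDs had a higher r. ENSRNOG00000017842 was most like Scnn1a (r = 0.78, 0.59 within groups), with 9 IDs higher. ENSRNOG00000034007 was most like Atxn1 (r = 0.87, 0.89 within groups), ENSRNOG00000014096 like Fn3krp (r = 0.78) and ENSRNOG00000011815 like Ipmk (r = 0.85). Among the 6 themselves, Scnn1a and Hsd11b2 had an r of 0.25, and Scnn1a and ENSRNOG00000011815 had an r of -0.46 over all libraries and 0.19 within groups.

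**Figure D5:**
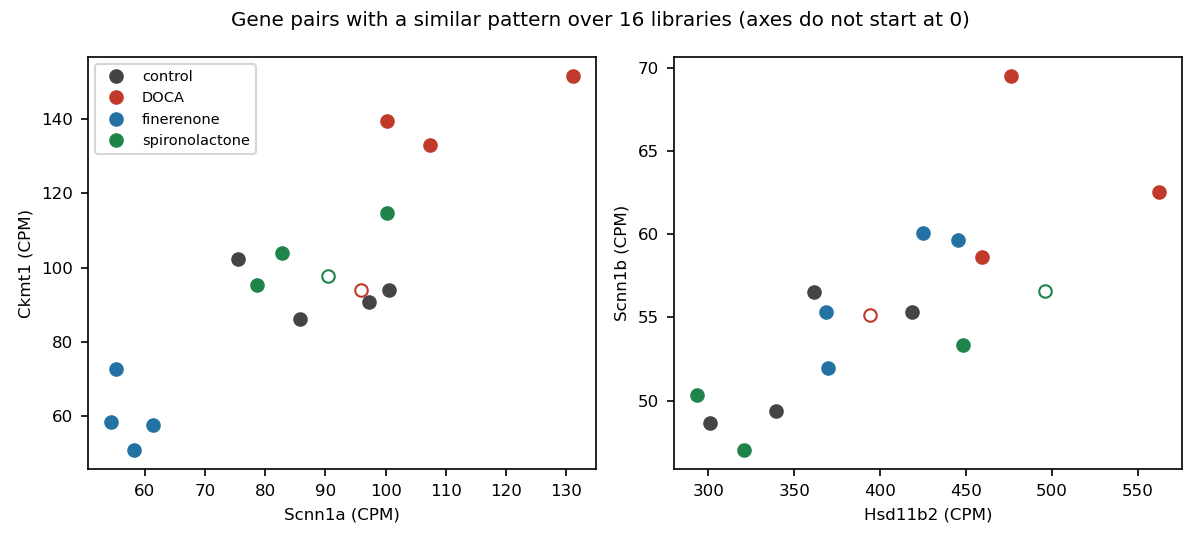
CPM of Ckmt1 against Scnn1a (left) and of Scnn1b against Hsd11b2 (right) in 16 libraries, with axes that do not start at 0. Colours are groups and open points are the 2 libraries left out of the tests. On the left the finerenone libraries form the low end of both genes, and on the right they lie among those of the other groups.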

How the data were processed

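Whole kidney RNA-Seq of 16 rats was analyzed, with groups and replicate numbers taken from the sample labels. Per the labels, the RNA was polyadenylated, and the authors' processing notes name Trim Galore 0.4.5, STAR 2.7.3a, RSEM and the build rn6 (Rnor_6.0). The deposited estimated counts are RSEM values per gene, not scaled for depth or length, of which 3.14% were not whole. They were rounded. The authors also deposited TPM, in which gene length and library total are corrected for. The annotation is not given in the sources used here. Counting of this kind divides reads between paralogs by estimate. The study's single-nucleus data were not used here. The tables held 0 columns of per-sample values left unused.

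Tests used edgeR 4.0.16 in R 4.3.3 (TMM, robust quasi-likelihood F test) in a single fit of 14 libraries and 4 groups with no block, over the 14628 genes that had more than 4 counts in 3 or more libraries. Each standard error is the size of the log2 change divided by the square root of its F value. Log2 CPM for correlations had a prior count of 2. Symbols were assigned by equality of TPM with the study's supporting tables, which paired 1999 of 2000 symbols, whereas the RefSeq table paired none of these IDs. Named were the 6 IDs, up to 10 genes of each pathway list by control TPM, and the 3 genes most like each ID. Some genes of the lists are not reported here. The members and lists were chosen with earlier results of these data known. Ratios within libraries are given with no test.

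Alternatives were RLE, upper quartile and library size scaling, filterByExpr and no filter, DESeq2 1.42.0, limma-voom, the likelihood ratio test of edgeR, limma 3.58.1 on TPM with pseudocounts of 1 or 0.1 before log2, fits that kept the 2 libraries dropped, only the 2 groups compared, a replicate block, summed libraries of the same first code number, other call rules and leaving out each library. The tests were checked on simulated counts. A floor of 3 counts equals 0.247 to 0.485 CPM, for counting error only.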

Additional observations from a re-analysis of the deposited data

Results flagged for a closer look

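In 36 groups of 4 libraries (6 genes and 3 ratios in 4 groups), the library at an end was far from the other 3 in 4 cases, where chance gives about 1 in 20 groups. ENSRNOG00000034007 was 2.67 CPM in DOCA replicate 4 and 8.83 to 9.88 CPM in the other DOCA libraries, a gap of 0.854 of the group's range. ENSRNOG00000011815 was 437 CPM in spironolactone replicate 3 and 103 to 126 CPM in the others (0.933 of the range). The ratio of Scnn1a to Scnn1b was 0.742 in finerenone replicate 1 and 0.831 to 0.849 in the others (0.833 of the range), and that of Scnn1a to Hsd11b2 was 0.16 in control replicate 3 and 0.111 to 0.119 in the others (0.834 of the range).

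By the direct edgeR test between the drugs, the effects of finerenone and spironolactone against DOCA differed for 7 of the 23 genes reported here. The 23 were the 6 IDs and 17 genes of the lists. Each of the 7 was lower with finerenone. Of all genes, 6.84% were called lower and 11.4% in either direction. The 17 could be named largely through the DOCA comparison, so their number and direction are not those of genes picked without regard to it. The log2 differences were -0.60 for Scnn1a, -1.04 for Trpv5, -1.15 for Cldn4, -0.58 for Cldn8, -0.53 for Pik3r1, -0.71 for St14 and -1.51 for Angptl4. With libraries of the same first code number summed, 4 of these 7 lost the call, Trpv5 (edgeR adjusted p of 0.0888), Cldn4 (0.227), Cldn8 (0.0599) and Pik3r1 (0.128). Of 14 fits that each left out a library, Pik3r1 lost it in 10 and Cldn4 in 4, and Scnn1a, Trpv5 and Cldn8 lost it in 1 each.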

How the results depend on the processing

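The number of the 6 genes called was computed again under each alternative, and no call turned its direction. Between DOCA and control, with 0 called, 1 was called with upper quartile scaling, with only the 2 groups compared and with libraries of the same first code number summed, 2 by adjusted p alone, 3 with library size alone, 4 on log2(TPM + 1) and 3 on log2(TPM + 0.1), and leaving out single libraries gave 0 to 1 (Hsd11b2, without control replicate 2 or 4 or DOCA replicate 1 or 2). Between finerenone and DOCA, with 2 called, 4 were called with library size alone and on both TPM scales, 3 with only the 2 groups compared (ENSRNOG00000011815 in addition), 1 with all 16 libraries, 0 when a change of 1 (log2) was required, and 1 to 3 without single libraries. Between spironolactone and DOCA, 0 were called under every alternative run. Between finerenone and control, with 1 called, 0 were called on log2(TPM + 1), with summed libraries (Scnn1a at -0.64 with an edgeR adjusted p of 0.051) and when a change of 1 (log2) was required, and 1 without any single library. Between spironolactone and control leaving out single libraries gave 0 to 1 (ENSRNOG00000011815, without spironolactone replicate 3). Between the drugs, with 1 called, 2 were called on both TPM scales, 0 when a change of 1 (log2) was required, and 0 to 2 without single libraries. Without spironolactone replicate 1 Scnn1a was -0.49 (adjusted p of 0.0168), and without spironolactone replicate 3 ENSRNOG00000011815 was 1.80. The library size and TPM scales lack the composition correction of TMM. For the other changes the cause was not tested. Over the 23 genes reported here, the 6 IDs together with the named genes of the lists, 2031 values kept their side of the call. Of the other values, 131 gained and 46 lost it, apart from fits without a library.

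With a replicate block the number called between DOCA and control was 1 (Hsd11b2) and was 2 between finerenone and DOCA. Same-numbered libraries deviated together in 4 of 19 pairs (r over 0.1, range -0.075 to 0.143). These pairs were not set against pairs with different numbers, and whether same-numbered libraries share more than a number was not tested. A gene at 22 to 87 counts per library, as ENSRNOG00000034007, limits precision by counting error.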
